A study of Rattus norvegicus with 12 samples.

Results

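The glucocorticoid receptor (GR) gene Nr3c1 and 7 of its core targets and partners were followed through cultured fibroblast-like synoviocytes (FLS) treated with taurochenodeoxycholic acid (TCDCA), a taurine-conjugated bile acid. The 8 genes were Nr3c1, Fkbp5, Hsd11b1, Tsc22d3, Dusp1, Sgk1, Per1 and Klf9, taken as every gene record that carried one of these names. They had 11 records among the 22442 of the data, and 9 of the 11 reached a mean of 1 FPKM (fragments per kilobase of transcript, scaled to the sequenced fragments of the library) over all libraries and were tested among 11611 such records. Nr3c1, Sgk1 and Dusp1 had 2 records each.

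Poly(A) RNA was sequenced from 12 libraries of FLS, the lining cells of the joint, taken from male SD rats with adjuvant arthritis (AA) raised by complete Freund's adjuvant and cultured to passage 3. Cells of the FCA group stayed untreated in DMEM medium for 12 h, and TCDCA was given for 12 h at 10 µM (AT10), 1 µM (AT1) or 0.1 µM (AT01), with 3 libraries in each group. All 4 groups were cells of arthritic rats, and no cells of healthy rats entered the comparison. No group received a glucocorticoid, so the data hold no reference for a full GR response in these cells. The study calls the 3 libraries of a group repeated sets and does not say whether they came from separate animals or cultures, so every p-value measures only the spread between these libraries, which may be technical.

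GR is a nuclear receptor that waits in the cytoplasm in a complex with heat shock proteins, moves to the nucleus when it binds a glucocorticoid and switches genes on or off there. Fkbp5, Tsc22d3, Dusp1, Sgk1, Per1 and Klf9 are among the genes it switches on in many cell types, and Fkbp5 in turn holds the receptor back. In the inflamed joint, FLS are a main source of cytokines and of enzymes that break down cartilage, and glucocorticoids quieten them partly through Tsc22d3 and Dusp1.

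Of the 10 FLS marker genes looked up, 8 were found, and together they stood at between 3137 and 4670 FPKM in every library. Most of that sum was Vim and Col1a1, with means of 2658 and 846 FPKM over all libraries. Prg4, another of the 8, was between 26.8 and 37.5 FPKM. Markers of macrophages and leukocytes (5 of 8 found) summed to between 5.71 and 21.9 FPKM, most of it Cd14, while Adgre1 and Aif1 stayed at or below 0.03 FPKM. Markers of endothelium (4 of 5 found) summed to at most 0.21 FPKM and of T cells (2 of 4 found) to at most 0.05 FPKM, with Cd3e listed at 0 in all libraries. Adipocyte markers (5 of 5 found) summed to between 27.0 and 43.3 FPKM, most of it Fabp4. The number of reads behind each value is unknown, and in bulk RNA fewer cells of a type and less RNA per cell cannot be told apart.

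The start sites of the members were read from RefSeq (rat assembly GRCr8), in windows of 300 bases that run from 250 bases before to 50 bases after a start. The table held 12 windows for 7 of the 8 genes, and Hsd11b1 had none. Each window was searched on both strands for the GR half-site TGTTCT, for 2 half-sites as an inverted repeat with 3 bases between them, for the cAMP response element TGACGTCA and its half-site TGACG, which lies within it, and for the E-box CACGTG. The GR half-site was in 0 of the 12 windows, against 20.7% of all 33469 windows, and the inverted repeat was in 0 of the 12, against 0.0149% of all. The cAMP half-site was in 3 of the 12 windows, against 21.2% of all, and the 3 windows belonged to Klf9, Dusp1 and Tsc22d3. The bases before the start are printed for Dusp1 and for 1 of the 3 starts of Tsc22d3, since these were the windows with more than 1 half-site and the target genes whose levels varied most between libraries. Capitals mark the cAMP half-sites and the full element, 5′ to 3′ on the strand of the gene.
Dusp1, GRCr8 chr10:17184603-17184852, plus strand: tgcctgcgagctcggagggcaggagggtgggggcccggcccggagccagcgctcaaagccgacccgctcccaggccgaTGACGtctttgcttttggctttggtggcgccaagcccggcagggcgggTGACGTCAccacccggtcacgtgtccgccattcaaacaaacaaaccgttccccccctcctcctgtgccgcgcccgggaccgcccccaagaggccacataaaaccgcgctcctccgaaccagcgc
Tsc22d3, GRCr8 chrX:109010035-109010284, minus strand: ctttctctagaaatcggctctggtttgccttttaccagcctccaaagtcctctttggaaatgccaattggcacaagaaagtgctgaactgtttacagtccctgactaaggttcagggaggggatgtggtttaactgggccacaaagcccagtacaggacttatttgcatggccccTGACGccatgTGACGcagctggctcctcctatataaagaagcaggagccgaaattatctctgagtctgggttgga
In Dusp1 the full element TGACGTCA began 124 bases before the start, a further half-site 172 bases before it, and an E-box 107 bases before it. The full element was in 1.83% of all windows and the E-box in 6.42%. In Tsc22d3 the half-sites began 75 and 65 bases before the start. These matches are letters in a sequence and say nothing of what binds there. Sites outside the 300 bases, or with other letters than these, were not searched. The absence of a match therefore does not mean that a gene lacks GR sites.

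The levels in FCA cells placed Dusp1 and Hsd11b1 far above the other members. On the FPKM scale, which is per transcript length, the mean level in FCA was 144.6 ± 47.0 (SD, n = 3) for Dusp1, 92.0 ± 3.68 for Hsd11b1, 16.8 ± 5.47 for Sgk1 and 10.3 ± 0.391 for Fkbp5. The receptor record MSTRG.8116 stood at 6.76 ± 1.22, its other record MSTRG.8108 at 7.51 ± 6.59, Klf9 at 5.59 ± 0.417, Per1 at 4.71 ± 0.429 and Tsc22d3 at 3.46 ± 0.812. The receptor and every target were thus measured in the untreated cells, with a record above 2 FPKM in each FCA library.

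**Figure D1:**
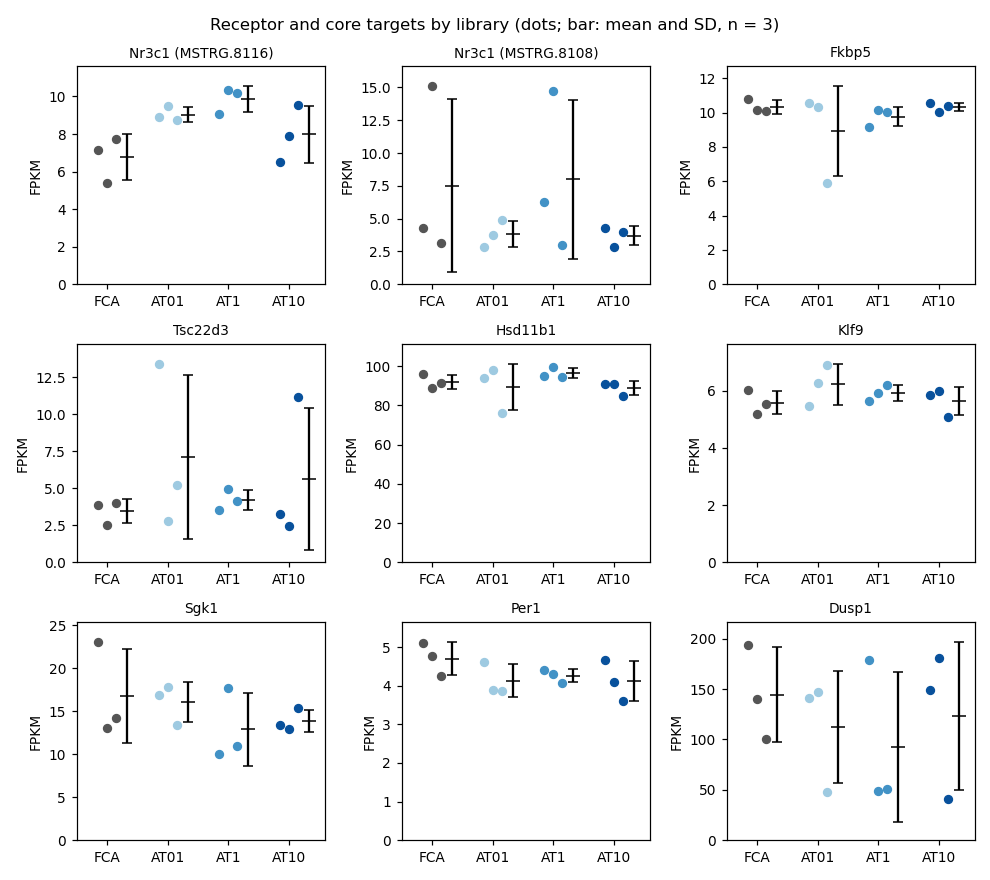
FPKM (linear axis from 0) of the 9 tested records of the members in each library, by group, with n = 3 libraries a group; dots are libraries in replicate order from left to right, and the black bar gives the mean and SD. The Nr3c1 record MSTRG.8116 lies higher in AT1 and AT01 than in FCA, while single libraries set the means of Fkbp5 in AT01, Tsc22d3 in AT01 and AT10, and MSTRG.8108 in FCA and AT1.

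No member passed an adjusted p under 0.05 in any comparison (limma on log2(FPKM + 1), Benjamini-Hochberg adjustment over 11611 records). At an unadjusted p under 0.05, 1 of the 8 genes was counted against FCA in AT1, 1 in AT01, 1 in TCDCA and 1 over the 4 groups, each time Nr3c1, and 0 in AT10, in the dose trend and in the 3 comparisons between doses. A Ballgown-style F test also gave 0 adjusted calls for the members wherever it was run. The background of such calls was low too. An adjusted p under 0.05 was reached by 0.172% of all records for AT10, 0.0947% for AT1 and 0.0947% for AT01, each compared with FCA. The percentage was 0.0258% for the 9 TCDCA libraries against FCA, 0.0431% over the 4 groups and 0% for the dose trend, in which the 4 groups were ranked from FCA to AT10. Between doses it was 0.258% for the pair AT10 and AT1, 0.0689% for AT10 and AT01 and 0.129% for AT1 and AT01. An unadjusted p under 0.05 was far more common, with 11.9%, 11% and 6.6% of all records in AT10, AT1 and AT01 against FCA, 12% for TCDCA against FCA, 8.57% over the 4 groups and 11.2% in the dose trend. For the same pairs of doses, in that order, the percentages were 6.46%, 4.97% and 3.43%. One gene of 8 at an unadjusted p under 0.05 is therefore near this background.

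Nr3c1 encodes the receptor itself. Its record MSTRG.8116 was at 7.15, 5.39 and 7.74 FPKM in the FCA libraries, at 8.89, 9.48 and 8.74 in AT01, at 9.09, 10.4 and 10.2 in AT1, and at 6.53, 7.90 and 9.54 in AT10. All AT1 and AT01 libraries lay above all FCA libraries, and AT10 overlapped each of the other groups. Of the 9 TCDCA libraries, 8 lay above the highest FCA library, and the other was AT10 replicate 1. On the log2(FPKM + 1) scale the difference from FCA was 0.50 in AT1 (95% confidence interval 0.16 to 0.83, adjusted p = 0.42 by limma) and 0.38 in AT01 (0.053 to 0.71, adjusted p = 0.72 by limma). In AT10 it was 0.21 (-0.22 to 0.64, adjusted p = 0.639 by limma), so the highest dose gave the smallest difference. The difference in AT10 was not shown to be smaller than in AT1, with AT10 at -0.29 against AT1 (adjusted p = 0.748 by limma). The two-sided exact permutation p was 0.1 for AT1 and for AT01, the smallest that 3 libraries against 3 can give. Groups without overlap in the higher direction were found in 9.87% of all records for AT1, 5.97% for AT01 and 10.7% for AT10, where the receptor did overlap. For the 9 TCDCA libraries together the difference was 0.36 (0.093 to 0.63, adjusted p = 0.339 by limma, two-sided exact permutation p = 0.0182). The groups overlapped in this comparison through AT10 replicate 1. Without FCA replicate 2, the lowest library of this record, that difference was 0.23 (adjusted p = 0.795 by limma). The 3 comparisons share the FCA libraries, so their differences are not independent of each other. The order of the group means was FCA, AT10, AT01 and AT1, and each neighbour in it overlapped the next.

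The other Nr3c1 record, MSTRG.8108, behaved in another way. It was at 4.26, 15.1 and 3.17 FPKM in FCA, at 2.84, 3.76 and 4.86 in AT01, at 6.26, 14.7 and 3.00 in AT1, and at 4.26, 2.87 and 3.97 in AT10. FCA replicate 2 and AT1 replicate 2 were high, and the other 10 libraries stood between 2.84 and 6.26 FPKM. The difference of TCDCA from FCA was -0.35 on the log2 scale with an interval from -1.34 to 0.64 (adjusted p = 0.776 by limma), and 0.24 without FCA replicate 2. FCA replicate 2 thus held the lowest value of MSTRG.8116 and the highest of MSTRG.8108.

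Added up per library, the 2 records gave Nr3c1 between 10.9 and 20.5 FPKM in FCA, 11.7 and 13.6 in AT01, 13.2 and 25.1 in AT1, and 10.8 and 13.5 in AT10. Over all libraries the sum was 14.1 FPKM in TCDCA and 14.3 in FCA, a log2 difference of 0.00094 (two-sided exact permutation p = 1.0). Without FCA replicate 2 the FCA mean was 11.2 and the difference 0.27 (exact permutation p = 0.291, with 0.0182 as the smallest possible). Without AT1 replicate 2 as well, the TCDCA mean was 12.8 and the difference 0.17 (exact permutation p = 0.222). The leaving out of these libraries was chosen after their values were seen. Which transcripts each record covers is unknown, so the sum need not measure the level of the receptor RNA. With all libraries in, the sum did not show a difference between TCDCA and FCA. The record MSTRG.8116 taken alone was higher in 8 of 9 treated libraries than in any control.

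**Figure D2:**
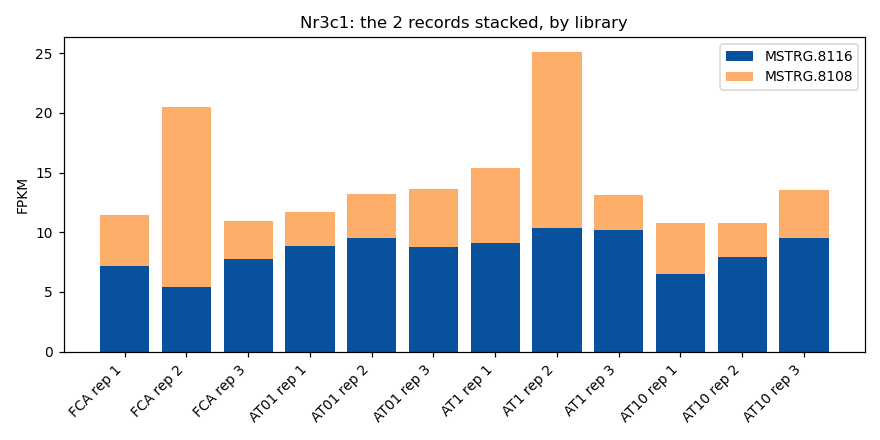
FPKM of the 2 Nr3c1 records stacked for each of the 12 libraries, with MSTRG.8116 below and MSTRG.8108 above (linear axis from 0). The high totals of FCA replicate 2 (20.5) and AT1 replicate 2 (25.1) come from MSTRG.8108, while MSTRG.8116 is lowest in FCA replicate 2 at 5.39.

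Srsf9 encodes a splicing factor known to bear on the choice between GR isoforms. It was picked because the study followed it and with its values in these libraries already known, and it belongs to none of the lists. It stood at 2 levels, between 29.4 and 35.5 FPKM in AT10 replicate 2 and the 3 AT1 libraries and between 13.5 and 17.5 FPKM in the other 8. Nr3c1 MSTRG.8116 was at 7.90 FPKM in AT10 replicate 2 and at 9.09 to 10.4 in AT1. In AT01, with Srsf9 at its lower level, it was at 8.74 to 9.48. Because Srsf9 fell into separate clusters, no pooled correlation between the 2 genes is given.

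Fkbp5 encodes a co-chaperone that lowers the affinity of GR for its hormone and is itself induced by GR. It was steady apart from 1 library. Its values were 10.8, 10.2 and 10.1 FPKM in FCA, 10.6, 10.3 and 5.91 in AT01, 9.14, 10.2 and 10.0 in AT1, and 10.5, 10.1 and 10.4 in AT10. AT01 replicate 3 was low, and the other 11 libraries lay between 9.14 and 10.8 FPKM. The difference from FCA was -0.0018 in AT10, with an interval that spans 0.900-fold to 1.11-fold of FCA on the FPKM + 1 scale (adjusted p = 0.992 by limma). In AT1 the interval ran from 0.845-fold to 1.07-fold, and in AT01 from 0.592-fold to 1.23-fold. Without AT01 replicate 3 the difference of AT01 was 0.013 on the log2 scale in place of -0.23.

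Hsd11b1 encodes the enzyme that turns inactive 11-keto glucocorticoids into the active hormone inside the cell and so sets how much ligand GR meets. It was expressed at 96.0, 88.7 and 91.5 FPKM in FCA, at 94.1, 98.1 and 76.1 in AT01, at 95.2, 99.5 and 94.6 in AT1, and at 91.1, 90.7 and 84.9 in AT10. The lowest value was again that of AT01 replicate 3, and every dose group overlapped FCA. The differences from FCA were small, at -0.049 in AT10 (interval 0.872-fold to 1.07-fold), 0.067 in AT1 (0.954-fold to 1.15-fold) and -0.049 in AT01 (0.798-fold to 1.17-fold), with adjusted p of 0.743, 0.633 and 0.932 by limma. Between doses, all AT10 libraries lay below all AT1 libraries, with a difference of -0.12 (adjusted p = 0.748 by limma, exact permutation p = 0.1). Such a gap in that direction was found in 8.16% of all records, so it was not unusual among them.

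Tsc22d3 encodes GILZ, a leucine zipper protein that carries part of the anti-inflammatory action of glucocorticoids. It was low in most libraries, at 3.85, 2.53 and 4.01 FPKM in FCA, 13.4, 2.78 and 5.19 in AT01, 3.55, 4.93 and 4.12 in AT1, and 3.24, 2.45 and 11.2 in AT10. AT01 replicate 1 and AT10 replicate 3 stood out, and the other 10 libraries lay between 2.45 and 5.19 FPKM. The log2 difference from FCA was 0.66 in AT01, 0.23 in AT1 and 0.35 in AT10, and 0.41 in the 9 TCDCA libraries together, each with an interval that includes 0 (adjusted p between 0.614 and 0.814 by limma). Without AT10 replicate 3 the difference in AT10 was -0.21.

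Dusp1 encodes a phosphatase that switches off the MAP kinases p38 and JNK, and it answers to serum, stress and cAMP as well as to glucocorticoids. Its record MSTRG.2553 was at 193.8, 139.8 and 100.2 FPKM in FCA, at 141.5, 147.2 and 47.8 in AT01, at 179.1, 48.4 and 50.7 in AT1, and at 148.9, 180.7 and 40.7 in AT10. Every treated group held at least 1 library between 40.7 and 50.7 FPKM, 4 in all, and no FCA library was under 100.2. The difference of TCDCA from FCA was -0.59 on the log2 scale, with an interval from -1.74 to 0.56 (adjusted p = 0.668 by limma, exact permutation p = 0.395). By dose it was -0.48 at 0.1 µM, -0.86 at 1 µM and -0.43 at 10 µM, each with an interval that includes 0. Without replicate 3 of the treated group it was 0.23 in AT10 and 0.048 in AT01. Without AT1 replicate 1 it was -1.48 in AT1, where the sign stayed negative whichever library was left out. Every library was left out in turn, and the cases given here were picked after their values were seen. A lower level of Dusp1 was thus not established against the spread between libraries. The second Dusp1 record, MSTRG.2554, was listed at 0 in 9 libraries and at no more than 0.18 FPKM in the other 3, and was not tested.

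Sgk1 encodes a serum- and glucocorticoid-induced kinase that regulates ion channels and cell survival. Its record MSTRG.137 was at 23.1, 13.1 and 14.2 FPKM in FCA, at 16.9, 17.9 and 13.4 in AT01, at 9.98, 17.8 and 10.9 in AT1, and at 13.4, 13.0 and 15.4 in AT10. FCA replicate 1 was the highest of all and the remaining 11 libraries overlapped across groups. The difference of TCDCA from FCA was -0.20 (interval -0.62 to 0.23, adjusted p = 0.698 by limma), and 0.041 without FCA replicate 1. The second record, MSTRG.138, was listed at 0 in all 12 libraries and was not tested. A 0 in these files need not mean that the RNA was missing, since the metallothionein gene Mt1, another GR target, was listed at 0 in 9 libraries and at 70.4 to 78.0 FPKM in the other 3.

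Per1 encodes a repressor of the circadian clock that glucocorticoids induce directly. It was at 5.10, 4.77 and 4.25 FPKM in FCA, at 4.63, 3.90 and 3.87 in AT01, at 4.42, 4.30 and 4.08 in AT1, and at 4.66, 4.11 and 3.61 in AT10. The 3 treated means, from 4.13 to 4.27, lay under the FCA mean of 4.71, but the groups overlapped, and 5 of the 9 TCDCA libraries were below the lowest FCA library. The difference of TCDCA from FCA was -0.14 (interval -0.30 to 0.019, adjusted p = 0.465 by limma, two-sided exact permutation p = 0.0682).

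Klf9 encodes a zinc finger repressor induced by glucocorticoid and thyroid hormone. On the log2(FPKM + 1) scale it had the smallest SD within groups of the tested member records. Its values were 6.03, 5.20 and 5.54 FPKM in FCA, 5.48, 6.29 and 6.90 in AT01, 5.63, 5.93 and 6.22 in AT1, and 5.84, 5.99 and 5.10 in AT10. All groups overlapped. The difference from FCA was 0.011 in AT10 (interval 0.865-fold to 1.17-fold), 0.073 in AT1 (0.92-fold to 1.2-fold) and 0.13 in AT01 (0.914-fold to 1.31-fold), with adjusted p of 0.969, 0.707 and 0.822 by limma.

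**Figure D3:**
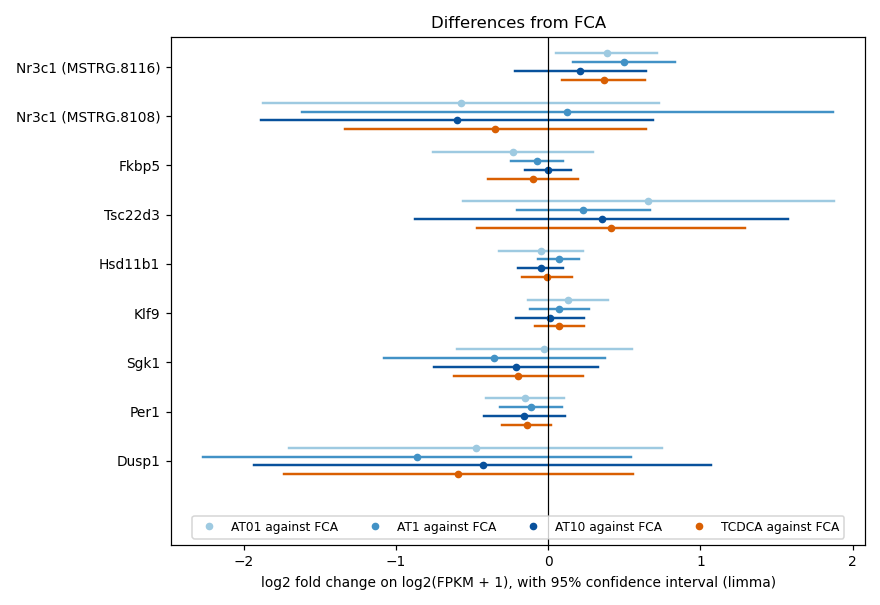
Log2 fold change from FCA of each tested member record in AT01, AT1, AT10 and all TCDCA libraries together, on the log2(FPKM + 1) scale; dots are limma estimates and bars 95% confidence intervals that are not adjusted for the number of records. Klf9, Hsd11b1 and Per1 have narrow intervals that include 0, and those of Per1 lie mostly below it. Only the intervals of Nr3c1 MSTRG.8116 in AT01, AT1 and all TCDCA libraries leave 0 out.

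Taking for each gene the record of highest mean, 3 of the 8 members were higher and 5 lower than FCA in AT10, 4 and 4 in AT1, 3 and 5 in AT01, and 3 and 5 in the 9 TCDCA libraries. The median log2 difference of the members was -0.025 in AT10, -0.0038 in AT1, -0.038 in AT01 and -0.056 in TCDCA, beside medians of -0.0085, 0.016, 0.0017 and 0.0031 over all records tested. Along the dose rank the members again had 3 positive and 5 negative slopes.

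How firmly these differences are known depended on the gene. The SD within groups on the log2(FPKM + 1) scale was 0.94 for Dusp1, 0.74 for Nr3c1 MSTRG.8108 and 0.71 for Tsc22d3, larger than in all but 3.5%, 5.57% and 5.93% of the records tested. It was 0.32 for Sgk1, 0.22 for Fkbp5 and 0.18 for Nr3c1 MSTRG.8116, near the median of 0.17 over all records for the last of these. Per1, Hsd11b1 and Klf9 had 0.11, 0.11 and 0.10, and 74.3%, 76.9% and 78.0% of records were more variable. For Dusp1 and Tsc22d3 the widest intervals among the 7 comparisons between groups ran from -1.46 to 2.33 (AT10 against AT1) and from -1.94 to 1.33 (AT10 against AT01), so large changes in either direction lay within them.

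**Figure D4:**
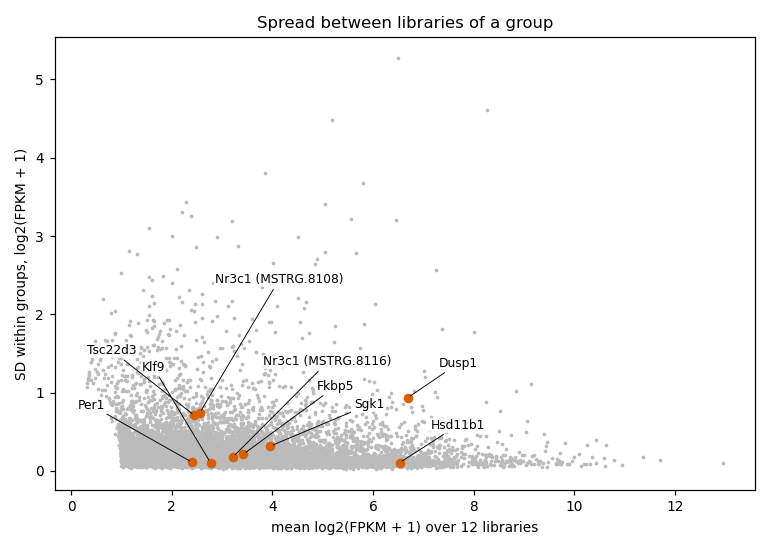
SD within groups against the mean of log2(FPKM + 1) over 12 libraries for the 11611 records tested (grey) and the 9 member records (orange, named). Dusp1 (0.94), Nr3c1 MSTRG.8108 (0.74) and Tsc22d3 (0.71) lie above most records of like level, and Klf9 (0.10), Per1 (0.11) and Hsd11b1 (0.11) lie low.

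The members did not vary as 1 group across the 12 libraries. Pearson's r of log2(FPKM + 1) between members ran from -0.63 for Per1 with Nr3c1 to 0.76 for Hsd11b1 with Fkbp5, as a description over libraries that share their groups. The rank correlation of the latter was 0.26, and both genes had their lowest value in AT01 replicate 3. The 2 records of another name closest to each member by Pearson's r over the 12 libraries were Birc6 (r = 0.957) and Zfp106 (0.938) for Nr3c1, Ppt1 (0.901) and LOC100910446 (0.935) for Hsd11b1, and Zfp167 (0.940) and P4htm (0.919) for Per1. For Klf9 they were Rcbtb2 (0.897) and Pcmtd1 (0.848), for Sgk1 the small RNA gene SCARNA16 (0.851) and Rtcd1 (0.835), and for Dusp1 Cox18 (0.953) and Tmem38a (0.885). Fkbp5 was closest to Slc35f6 (0.983, with a rank correlation of 0.727) and AC093965.1 (0.971, rank correlation 0.636). Tsc22d3 was closest to Mast4 (0.906, rank correlation 0.867) and AABR07040855.1 (0.902, rank correlation 0.569). An outlying library, such as AT01 replicate 3 for Fkbp5, can raise Pearson's r above the rank correlation. None of these 16 names was another member.

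The wider pathway was followed in 7 lists of genes, of which 81 were tested. Receptor chaperones had 10 of 11 genes tested, coregulators 11 of 12, steroid metabolism and transport 4 of 7, other induced targets 20 of 26, repressed inflammatory genes 12 of 16, circadian clock genes 14 of 16 and immediate early genes 11 of 14. At an adjusted p under 0.05 limma called 0 of the 81 for AT10, 1 for AT1, 0 for AT01 and 0 for the 9 TCDCA libraries, each compared with FCA, and the Ballgown-style test called 0 in each. At an unadjusted p under 0.05 there were 10, 19, 14 and 13 of the 81, beside 11.9%, 11%, 6.6% and 12% of all records in the same comparisons. The 1 call was the immediate early gene Egr1, which was lower in AT1.

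Around the receptor, Hsp90aa1, the inducible HSP90 of the GR complex, was at 40.6, 39.4 and 48.8 FPKM in FCA and at 61.8, 69.4 and 71.5 in AT10, a log2 difference of 0.65 (adjusted p = 0.129 by limma). It overlapped FCA at the lower doses, at 54.0, 42.9 and 67.0 FPKM in AT1 and between 33.3 and 71.7 in AT01, with log2 differences of 0.32 and 0.18. In the 9 TCDCA libraries together the difference was 0.38 (adjusted p = 0.491 by limma). Its constitutive partner Hsp90ab1 was at 386.0 ± 24.3 FPKM (SD, n = 3) in FCA and at 392.7 ± 2.01 in AT10, and the HSP70 gene Hspa8 at 108.2 ± 2.95 and 113.9 ± 3.73. Among coregulators, the Mediator subunit gene Med1 was at 5.5, 7.62 and 6.84 FPKM in FCA and at 8.94, 8.96 and 8.96 in AT1 (log2 difference 0.39, adjusted p = 0.42 by limma), with log2 differences of 0.37 in AT10 and 0.26 in AT01. The log2 difference of the chromatin remodeller gene Smarca4 was -0.20 in AT1 (adjusted p = 0.431 by limma), -0.17 in AT01 and -0.12 in AT10. In the median the chaperones were 0.067 and the coregulators 0.066 above FCA in TCDCA, beside 0.0031 for all records.

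Of the genes that handle steroids, Srd5a1, a steroid 5-alpha-reductase, was at 0.45, 1.23 and 0.35 FPKM in FCA and between 1.18 and 1.68 in the 9 TCDCA libraries. The log2 difference was 0.59 (adjusted p = 0.241 by limma). Its mean over all libraries was 1.27 FPKM, close to the minimum of 1 FPKM. It passed that minimum through the treated libraries, since the FCA mean was 0.68. Without FCA replicate 2, the only control within the treated range, the difference was 0.82 (adjusted p = 0.0161 by limma). Every library was left out in turn, and leaving out this one removes the overlap, so that p is no support for a difference. Srd5a3 and the efflux pump gene Abcb1a were level, at 20.6 ± 1.1 and 5.73 ± 0.449 FPKM (SD, n = 3) in FCA and at 20.2 ± 1.02 and 5.88 ± 0.429 in AT10.

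Among other induced targets, the annexin gene Anxa1 was at 431.3 ± 41.2 FPKM (SD, n = 3) in FCA and at 483.9 ± 37.5, 516.4 ± 12.5 and 497.4 ± 20.2 in AT01, AT1 and AT10, with a log2 difference of 0.21 in TCDCA (adjusted p = 0.311 by limma). Rgs2, a brake on G protein signals, differed by 0.21 (adjusted p = 0.339 by limma) and the metallothionein gene Mt2A by -0.30 (adjusted p = 0.487 by limma). In TCDCA, 9 of the 20 induced targets lay above FCA and 11 below, with a median of -0.015. The doses differed, with 13 above and 7 below in AT01 (median 0.086), 9 and 11 in AT1 (median -0.019) and 6 and 14 in AT10 (median -0.082), and these differences between doses were not tested for the list.

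Of the 12 tested genes that glucocorticoids repress in inflammation, 11 lay above FCA in TCDCA and 1 below, with a median of 0.19 beside 0.0031 for all records, and 0 were called by limma, with 2 at an unadjusted p under 0.05. By dose, 10 lay above and 2 below in AT10 (median 0.33), 9 and 3 in AT01 (median 0.13), and 6 and 6 in AT1, where the median of 0.012 was beside 0.016 for all records. Il6 was at 81.6, 107.8 and 128.1 FPKM in FCA, at 147.9, 125.3 and 178.1 in AT01, at 193.8, 109.3 and 173.9 in AT1, and at 126.1, 146.9 and 204.6 in AT10. Its log2 difference in TCDCA was 0.55 (adjusted p = 0.339 by limma). Vcam1, an adhesion molecule for leukocytes, was at 3.64, 2.55 and 3.07 FPKM in FCA and between 4.01 and 5.70 in the 9 TCDCA libraries, without overlap (log2 difference 0.49, adjusted p = 0.201 by limma), a separation found in 0.956% of all records in this direction. Vcam1 was named for its small unadjusted p in this same comparison, so that percentage is not a test of it. For the chemokine genes Ccl2 and Cxcl1 the log2 differences were 0.21 and -0.43, and neither passed the test. The summed macrophage and leukocyte markers ran from 6.49 to 21.9 FPKM in FCA and from 5.71 to 21.4 in the treated groups, and their part in these values was not tested.

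In the circadian clock, which Per1 belongs to, Nr1d1 was at 30.7 ± 0.859 FPKM (SD, n = 3) in FCA, 24.9 ± 1.33 in AT01, 24.8 ± 0.238 in AT1 and 27.3 ± 2.41 in AT10. The log2 difference was -0.30 in AT1 (adjusted p = 0.298 by limma) and -0.30 in AT01 (adjusted p = 0.569 by limma). Nr1d2 was at 5.40 ± 0.580 in FCA, 5.93 ± 1.31 in AT01, 6.82 ± 0.483 in AT1 and 6.76 ± 0.533 in AT10. Cry2 was at 10.4 ± 0.398 in FCA, 10.5 ± 0.325 in AT01, 11.1 ± 0.801 in AT1 and 9.71 ± 0.647 in AT10. In TCDCA 6 of the 14 clock genes tested lay above FCA and 8 below.

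**Figure D5:**
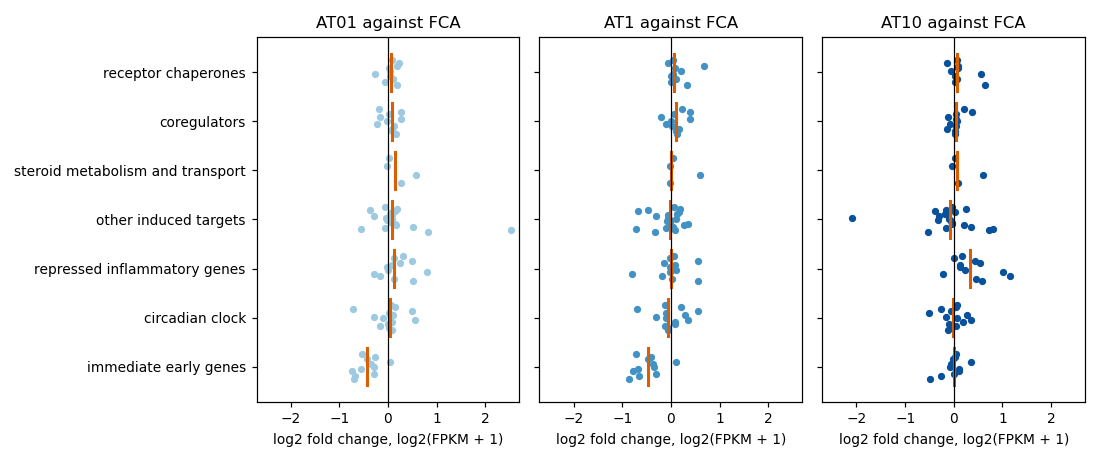
Log2 fold change from FCA on the log2(FPKM + 1) scale of the tested genes of 7 lists in AT01, AT1 and AT10; dots are genes and orange bars the medians of the lists. The immediate early genes have medians of -0.43 in AT01 and -0.46 in AT1 and of 0.0080 in AT10, while the medians of the other lists lie between -0.082 and 0.33.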

How the data were processed

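The authors sequenced poly(A) RNA and, by the study's methods, aligned reads with HISAT2, assembled transcripts with StringTie and deposited, for each of 22442 records, FPKM rounded to 2 decimals. The submitters' processing notes also list cutadapt and edgeR. The genome build and any scaling between libraries are not given in the sources used here, and the depth behind a value is unknown. Library sums of FPKM ran from 284210 to 309696. Groups came from the sample labels.

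Values were analysed as log2(FPKM + 1). The 11611 records whose mean reached 1 FPKM entered limma 3.58.1 (R 4.3.3, variance trend, only the libraries of the comparison in each fit), with Benjamini-Hochberg adjustment over all of them, and with two-sided exact permutation tests of the difference of means for single values (SciPy 1.17.1, pandas 2.3.3, NumPy 2.4.6, Python 3.11.15). The smallest exact p is 0.1 for 3 against 3 libraries and 0.00455 for 9 against 3. Figures were drawn with Matplotlib 3.10.9. The steps were tested on simulated data.

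The members and the lists were chosen with earlier results of these data known. Of each list, the text names genes with an adjusted p under 0.05, the 2 of smallest unadjusted p in TCDCA against FCA and the 2 of highest mean. Mt1 and Srsf9 fall outside this rule and were named with their values known. A gene that the rule names is not reported here. Alternatives were no filter, a minimum mean of 10 FPKM, a pseudocount of 0.1, 1 fit over 12 libraries, median-of-ratios scaling, a Ballgown-style F test, FPKM summed by name (also, chosen after seeing the data, without FCA replicate 2), the replicate number as a block and each library left out. Promoter windows came from RefSeq, GRCr8, matched by symbol, and no coordinates are given for the records.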

Additional observations from a re-analysis of the deposited data

How the results depend on the processing

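No alternative brought a member to an adjusted p under 0.05. Over 1254 alternative fits of the member records the smallest was 0.17 (Nr3c1 MSTRG.8116, TCDCA against FCA, without AT10 replicate 1). The number of members called stayed at 0 in every alternative run. With FPKM summed by gene name, which adds MSTRG.8108 to MSTRG.8116, Nr3c1 turned to -0.22 in AT10 and -0.088 in AT01 on the log2 scale. The Ballgown-style F test turned Fkbp5 in AT10 to 0.0027, Tsc22d3 in AT1 to -0.053, Per1 in AT1 to 0.0099 and Dusp1 in AT10 to 0.013, and it lowered Nr3c1 MSTRG.8116 to 0.27 in AT1 and 0.23 in TCDCA. With FCA replicate 2 left out, Klf9 in AT10 was at -0.032, whether or not FPKM was summed by name, since Klf9 had 1 record. The cause of the turns under the Ballgown-style test was not tested.

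With each library left out in turn, differences from FCA that changed sign ranged as follows. Nr3c1 MSTRG.8108 ran from -0.39 to 0.72 in AT1, from -0.95 to 0.020 in AT01 and from -0.73 to 0.24 in TCDCA. Fkbp5 ran from -0.018 to 0.027 in AT10 and from -0.36 to 0.013 in AT01. Tsc22d3 ran from -0.21 to 0.70 in AT10. Hsd11b1 ran from -0.12 to 0.062 in AT01 and from -0.036 to 0.022 in TCDCA. Klf9 ran from -0.032 to 0.071 in AT10. Sgk1 ran from -0.36 to 0.026 in AT10, from -0.17 to 0.21 in AT01 and from -0.35 to 0.041 in TCDCA. Dusp1 ran from -0.83 to 0.23 in AT10 and from -0.75 to 0.048 in AT01. Nr3c1 MSTRG.8116 and Per1 kept their sign in these comparisons. The number of list genes called in TCDCA against FCA ran from 0 to 1, the 1 being Srd5a1 without FCA replicate 2, also with FPKM summed by name.

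The replicate numbers did not pair the libraries, since the correlation of same-numbered libraries' deviations lay between -0.105 and 0.0942 over 18 pairs and 3 of 12 libraries were closest to one of their own number. With a replicate block, Nr3c1 MSTRG.8116 had an adjusted p of 0.303 by limma in TCDCA against FCA (log2 difference 0.36), and no call of a member changed. Read counts are not analysed here, so no counting error stands beside a value, and values near 0 are the least sure.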

Other observations

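The immediate early genes, which growth factors and stress switch on within minutes and of which several are also cAMP targets, did not follow the order of doses. Of the 11 tested, 10 lay below FCA in AT1 and 10 in AT01, with medians of -0.46 and -0.43 on the log2 scale. In AT10, 6 lay above and 5 below, with a median of 0.0080. The medians over all records tested were 0.016 in AT1, 0.0017 in AT01 and -0.0085 in AT10. Like the other lists, this one was chosen with earlier results of these data known. Egr1, a zinc finger transcription factor, was at 40.1, 43.2 and 41.9 FPKM in FCA and at 46.7, 47.0 and 41.5 in AT10, but at 24.3, 25.5 and 22.4 in AT1 and 22.3, 28.2 and 23.4 in AT01. The log2 difference was -0.77 in AT1 against FCA (adjusted p = 0.0488 by limma) and 0.88 in AT10 against AT1 (adjusted p = 0.0261 by limma), while AT01 against FCA gave -0.74 (adjusted p = 0.178 by limma). Over the 4 groups the adjusted p was 0.00863 by limma, and it stayed under the threshold in 19 of 19 alternatives. The calls between single groups were less stable, with 4 of 15 alternatives under the threshold for AT1 against FCA and 6 of 14 for AT10 against AT1.

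Btg2, an antiproliferative gene, was at 51.9 to 56.6 FPKM in FCA, 54.8 to 58.1 in AT10, 29.4 to 35.1 in AT1 and 28 to 43.2 in AT01. It was higher in AT10 than in AT1 by 0.76 (adjusted p = 0.0475 by limma, under the threshold in 5 of 14 alternatives). The nuclear receptor gene Nr4a1 was at 93.4 to 98.9 FPKM in FCA, 89.7 to 99.6 in AT10, 67.6 to 72.9 in AT1 and 66.9 to 74.9 in AT01 (adjusted p = 0.113 for AT1 against FCA by limma). Fos was at 10.7 ± 3.68 FPKM (SD, n = 3) in FCA and 7.14 ± 1.31, 5.26 ± 0.687 and 5.99 ± 0.499 in AT10, AT1 and AT01. Ier2 was at 31.9 ± 1.82 in FCA, 30.2 ± 2.20 in AT10, 24.8 ± 1.39 in AT1 and 26 ± 1.31 in AT01, and Ier3 overlapped between all groups. Dusp1, itself an immediate early gene, had low libraries in each of the 3 treated groups, AT10 included. These comparisons share libraries and are not independent of each other.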
